A study of Mus musculus with 11 samples.

Results

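The interferon-stimulated genes are 41 mouse genes whose transcription rises when cells are exposed to interferons. They were taken by symbol and Ensembl identifier from the 48795 genes of the deposited table, in which all 41 were found. Interferons are cytokines released by infected or activated cells. Type I and type III interferons signal through the kinases JAK1 and TYK2 to a complex that contains STAT2 and IRF9 and binds the interferon-stimulated response element (ISRE). Interferon gamma acts through another element, the gamma-activated site (GAS). The products sense foreign nucleic acid, block viral RNA and its translation, attack pathogen vacuoles or feed back on the signal, and resting lymphocytes are known to hold a basal level of many of them.

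RNA was sequenced from 11 libraries of splenic B cells of 8 female mice aged 8 to 12 weeks, 10 days after intravenous immunization with sheep red blood cells (SRBCs), a T cell-dependent antigen that leads to germinal centers. Light zone (LZ) B cells, the germinal center compartment in which B cells are selected, came from 4 Myc WT mice (mice 1 to 4) and 4 Myc V394D mice (mice 5 to 8), and memory B cells (MBCs) from Myc WT mice 1, 3 and 4. Myc V394D is a valine-to-aspartate change at the endogenous Myc locus that disrupts binding of MYC to MIZ1, a partner with which MYC represses genes. It was present in all cells of the mouse, on a C57BL/6 background. LZ B cells were sorted as Fas+ B220+ cells with high CD86 and low CXCR4 that lacked CD138, IgD and CD38, and MBCs as B220+ CD273+ CD38+ cells that lacked CD138 and IgD, both after magnetic depletion of CD43-bearing cells. The identifiers of mice 1 to 3, of mouse 4 and of mice 5 to 8 have 3 different prefixes, so that genotype and mouse-name prefix cannot be told apart. Values are TPM, a level scaled by transcript length that can be set side by side between genes. How many reads stand behind each is not known.

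The libraries differed in ways that touch the values below. Ribosomal RNA genes took 35.7 to 44.5% of all TPM in Myc WT LZ B cells, 44.1 to 61.3% in Myc V394D LZ B cells and 36.1 to 37.5% in MBCs, which leaves less of the fixed total for every other gene in the Myc V394D libraries. Between 15460 and 19537 genes were above 0 in Myc WT LZ B cells, between 13169 and 16421 in Myc V394D LZ B cells, and between 11527 and 16040 in MBCs. Of 7803 protein-coding genes that averaged 5 TPM or more in Myc WT LZ B cells, 315 (4.04%) were listed at 0 in MBC 1, 527 (6.75%) in MBC 3 and 20 (0.256%) in MBC 4, so that a single 0 in the first 2 of these libraries says little. The RNA was checked against the sort labels: of the genes of the MBC gate, Cd38 was at 11.4 to 14.8 TPM in Myc WT LZ B cells and 199.7 to 275.6 TPM in MBCs, and Pdcd1lg2 (CD273) at 2.23 to 5.32 and 28.6 to 78.9 TPM. The summed TPM of 6 memory B cell genes, these 2 with Ccr6, Cd80, Nt5e and Klf2, was 33.6 to 37.8 in Myc WT LZ B cells and 445 to 600 in MBCs, and that of 8 LZ genes, among them Bcl6 and S1pr2, was 824 to 1038 and 305 to 352. Not every gene followed its label. Nt5e, of the memory list, was at 6.80 to 11.47 TPM in MBCs beside 10.79 to 13.37 TPM, and Ighd, which encodes the IgD that both sorts select against, was at 156, 59.3 and 90.6 TPM in MBCs of mice 1, 3 and 4 beside 19.6 to 31.9 TPM in Myc WT LZ B cells. In such bulk libraries fewer cells of a type and less RNA per cell cannot be told apart.

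RefSeq promoter windows (GRCm38.p6, from 250 bases before to 50 bases after the start of transcription) were given for 31 of the 41 members, in 39 windows. The ISRE core was searched as GAAANNGAAA on both strands, and the GAS as TTCNNNGAA, which reads the same on both strands. An ISRE core stood in 17 of the 39 member windows (43.6%) and in 3.44% of all 32851 windows, and a GAS in 8 (20.5%) and in 8.3%. The 16 members with an ISRE core in a window were Ifit1, Ifit3, Isg15, Stat2, Oas1a, Oas3, Rsad2, Bst2, Ifih1, Ddx58, Trim30a, Gbp2, Gbp3, Gbp7, Igtp and Irgm1. Usp18, Oas2, Zbp1, Mx1, Rtp4, Parp14, Ifi27, Mx2, Parp9 and Dhx58 had no window. These shares describe the letters of the windows and no binding.

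The 4 windows shown are those of 3 members whose level was higher in MBCs, Pml, Ddx58 and Gbp7, and of Isg15, a widely used interferon-stimulated gene that stayed low in all groups. They are written 5′ to 3′ on the strand of the gene, with the ISRE cores in capitals. They lie at chr9:58249737-58250036 (Pml, minus strand), chr4:40239776-40240075 (Ddx58, minus strand), chr3:142530086-142530385 (Gbp7, plus strand) and chr4:156200769-156201068 (Isg15, minus strand).
Pml: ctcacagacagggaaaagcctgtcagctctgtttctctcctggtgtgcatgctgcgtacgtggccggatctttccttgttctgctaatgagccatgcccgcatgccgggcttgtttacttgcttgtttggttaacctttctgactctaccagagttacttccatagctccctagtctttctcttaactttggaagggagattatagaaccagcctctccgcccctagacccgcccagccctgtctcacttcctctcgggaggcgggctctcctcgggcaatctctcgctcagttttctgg
Ddx58: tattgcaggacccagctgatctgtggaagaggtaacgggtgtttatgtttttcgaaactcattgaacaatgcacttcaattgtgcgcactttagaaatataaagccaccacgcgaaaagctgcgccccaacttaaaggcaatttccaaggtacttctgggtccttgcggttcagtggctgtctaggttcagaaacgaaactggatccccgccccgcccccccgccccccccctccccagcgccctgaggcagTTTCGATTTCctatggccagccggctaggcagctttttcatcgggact
Gbp7: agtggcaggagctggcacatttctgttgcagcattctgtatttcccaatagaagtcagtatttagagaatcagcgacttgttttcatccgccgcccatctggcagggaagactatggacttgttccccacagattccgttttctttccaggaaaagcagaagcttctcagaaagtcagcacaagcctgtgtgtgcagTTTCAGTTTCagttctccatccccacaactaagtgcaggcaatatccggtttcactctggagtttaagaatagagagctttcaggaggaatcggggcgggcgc
Isg15: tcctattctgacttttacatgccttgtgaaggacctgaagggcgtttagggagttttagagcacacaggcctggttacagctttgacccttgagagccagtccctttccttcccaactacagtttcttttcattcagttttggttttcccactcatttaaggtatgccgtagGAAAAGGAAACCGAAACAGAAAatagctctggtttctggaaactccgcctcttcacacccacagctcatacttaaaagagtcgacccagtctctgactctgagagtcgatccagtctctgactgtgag
The Isg15 window held 3 overlapping cores that began 78, 72 and 66 bases before the start site. The Ddx58 window held 1 core at base 3 of the transcript. The Gbp7 window held 1 core 53 bases before the start site and 2 GAS matches further upstream. No core was found in the Pml window, nor in the windows of Sp100, Irf9 and Cmpk2, whose values follow.

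The interferon-stimulated genes lay near the middle of protein-coding genes in LZ B cells. In the Myc WT LZ libraries 68.3 to 78.0% of them were at 1 TPM or more, beside 61.4 to 62.8% of protein-coding genes. The median TPM of the 41 members was 2.77 to 3.74 in the 4 Myc WT LZ libraries and 1.88 to 3.33 in the 4 Myc V394D LZ libraries, below the median of the 15808 protein-coding genes above 0 in any library, which was 4.15 to 4.99 and 2.81 to 4.11. In MBCs the members' median was 5.53, 8.14 and 11.3 TPM in mice 1, 3 and 4, and stood above that of protein-coding genes in each (2.68, 1.06 and 5.36 TPM). The summed TPM of the members was 526 to 690 in Myc WT LZ B cells, 370 to 543 in Myc V394D LZ B cells and 1105 to 1384 in MBCs, with no overlap between MBCs and either LZ group. A few genes made up much of these sums. Sp100, Pml and Ddx58 together gave 43.5 to 48.9% of the sum in Myc WT LZ B cells and 55.5 to 62.7% in MBCs, and without these 3 genes the sum was 269 to 390 TPM in Myc WT LZ B cells and 413 to 615 in MBCs.

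**Figure D1:**
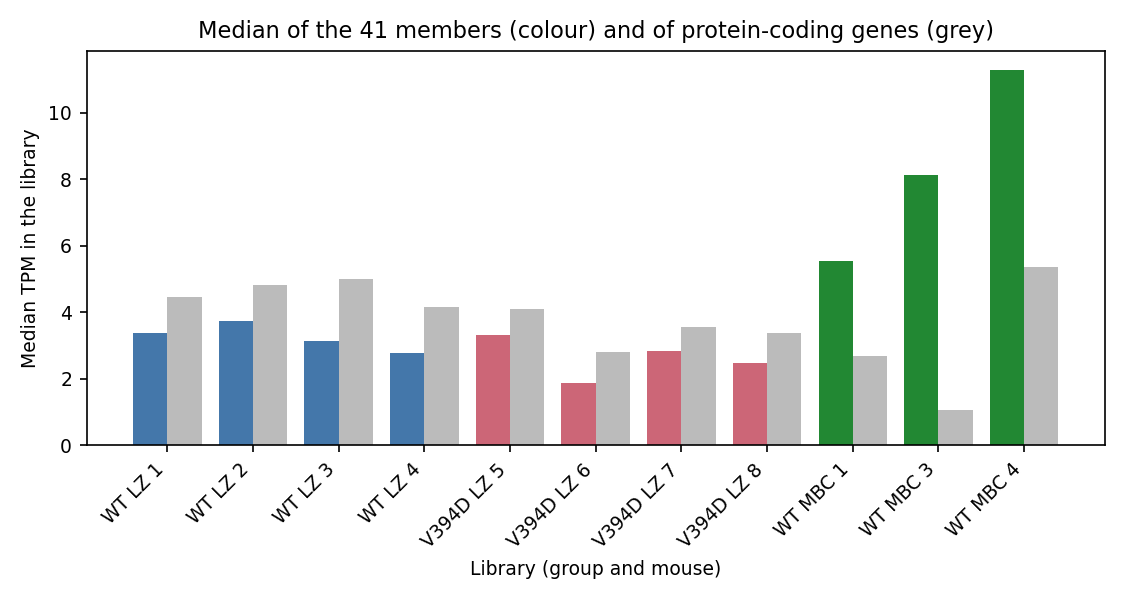
Median TPM (y axis, linear) in each of the 11 libraries (x axis) of the 41 interferon-stimulated genes (coloured bars: blue Myc WT LZ, red Myc V394D LZ, green Myc WT MBC) and of protein-coding genes above 0 in any library (grey bars). The coloured bar is below the grey bar in all 8 LZ libraries and above it in all 3 MBC libraries.

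The members spanned a wide range of levels. Of the 41 members, 16 averaged 10 TPM or more in the 11 libraries, and 16 were under 5 TPM in every LZ library. The latter included the classical antiviral effectors Ifit1, Ifit2, Ifit3, Mx1, Oas2, Oasl1, Oasl2 and Rsad2. Mx2, which is annotated as a polymorphic pseudogene and not as protein-coding, and Ifi44 were under 1 TPM in every library, and 19 members were above 0 in all 11. The highest member in each group was Sp100, with a mean of 269 TPM in Myc WT LZ B cells, at percentile 98.3 of protein-coding genes. It was followed in these cells by Trim30a (35.5 ± 4.52, SD, n = 4), Trim25 (31.6 ± 6.42), Isg20 (30.4 ± 17.6) and Ifi27 (23.6 ± 9.61), whose ranges overlapped. Across the 11 libraries, with group means removed, the median correlation between pairs of 34 members was 0.054, beside 0.11 for pairs of protein-coding genes. This is a description, with no test, over libraries that differ in composition.

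**Figure D2:**
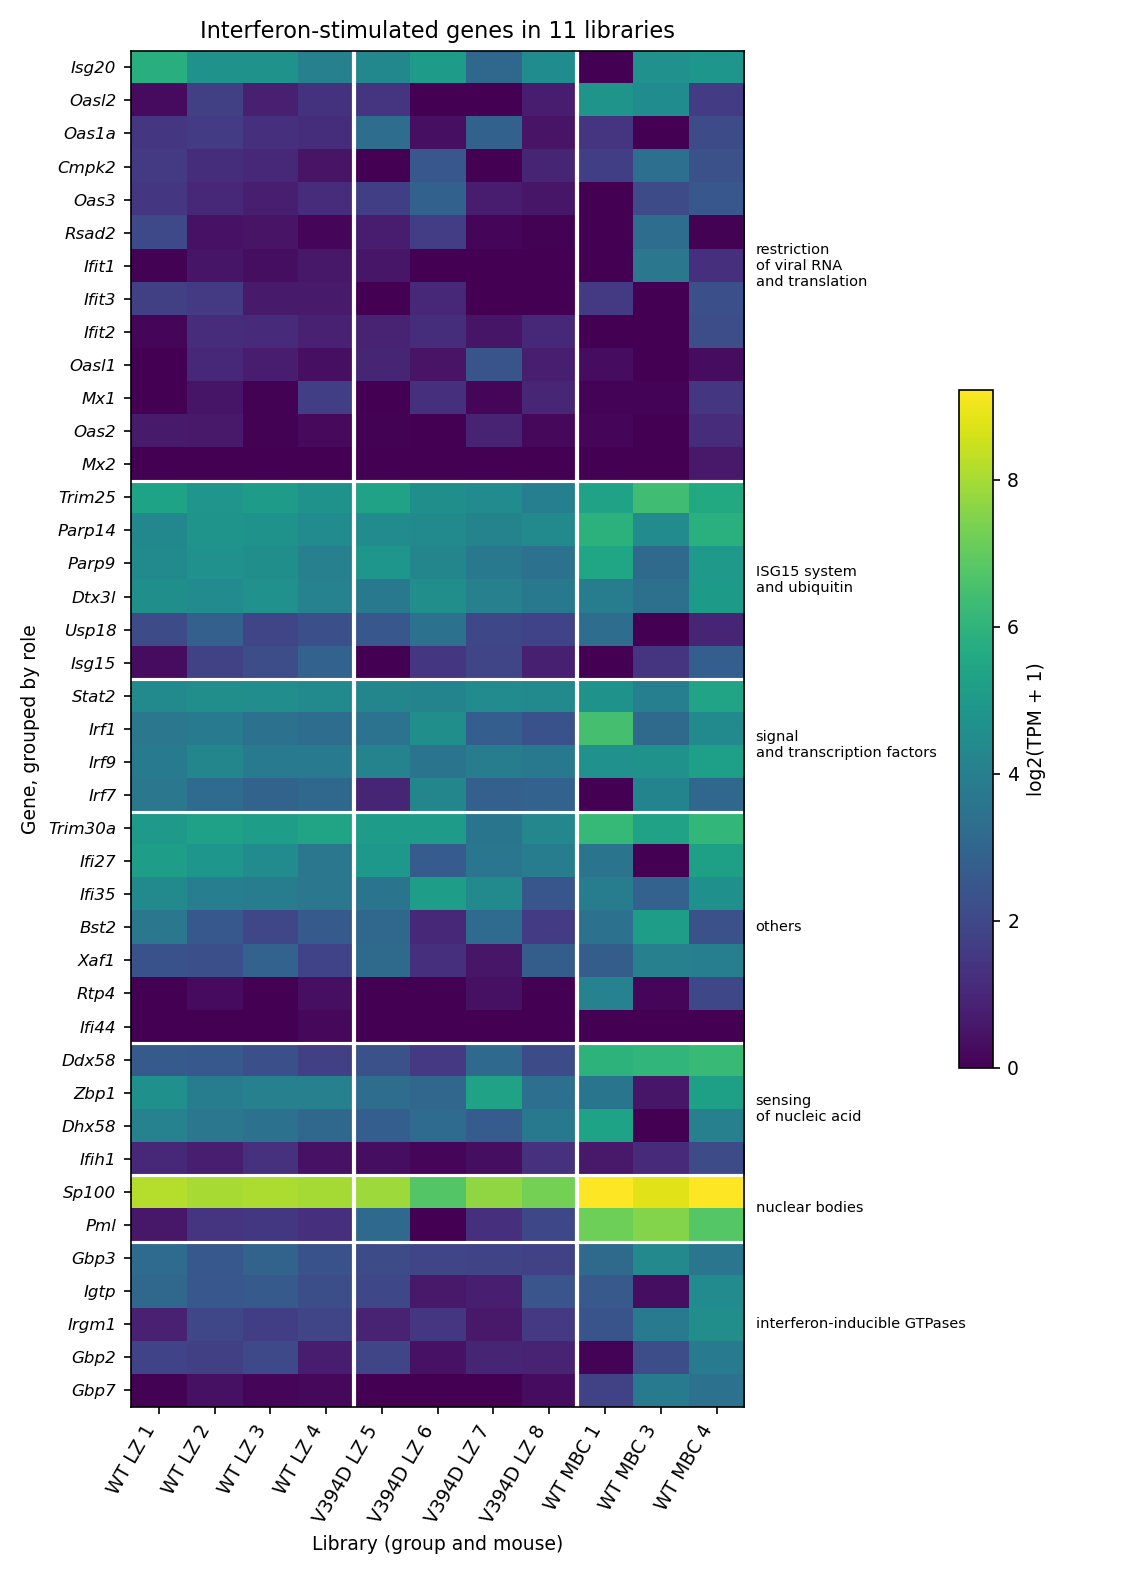
Level of each of the 41 members (rows, grouped by role) in each of the 11 libraries (columns, labelled by group and mouse) as log2(TPM + 1), from dark (0) to yellow (highest). Sp100 is bright in every column, Pml and Ddx58 are bright in the 3 MBC columns, and most of the 13 genes that restrict viral RNA and translation are dark throughout.

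MBCs were compared with Myc WT LZ B cells to ask how the level of these genes differs between memory cells and the selected compartment of the germinal center. Both comparisons described here use the same 4 Myc WT LZ libraries. Of the 41 members, 35 averaged 1 TPM or more in the 7 libraries and were tested. Ifit2, Mx1, Mx2, Oas2, Oasl1 and Ifi44 were not. Ifit1, Rsad2, Rtp4, Ifih1 and Gbp7 passed although their mean in Myc WT LZ B cells was under 1 TPM. With limma on log2(TPM + 1) and Benjamini-Hochberg adjustment over 13245 genes, 4 members were higher in MBCs (Pml, Ddx58, Sp100 and Gbp7), beside 4.17% of all genes tested. None was lower, beside 5.04% of all genes tested. At an unadjusted p under 0.05, 10 members were higher, beside 11.3% of all genes tested, and 0 lower, beside 15.8%. When the mouse entered the fit as a replicate block, which leaves mice 1, 3 and 4, the number higher at the adjusted threshold was 2 (Ddx58 and Pml). The block also leaves out Myc WT LZ mouse 2, and without that mouse alone the count was 2 as well, as it was without Myc WT LZ mouse 3. It was 7 without MBC 3, when Rtp4, Parp14 and Trim30a also passed. Every MBC library was above every Myc WT LZ library for 7 members, beside 11.8% of all genes tested, and below for 0, beside 14.4%. The median log2 difference of the 35 members was 0.44, beside -0.13 for 10171 protein-coding genes, with 24 members above 0 and 11 below. Ifit1, Rsad2, Rtp4, Ifih1 and Gbp7, which passed the filter only through MBCs, were all above 0, and Gbp7 is 1 of the 4 called. Over all 41 members, with no filter, the median was 0.34, beside -0.06 for the 15808 protein-coding genes above 0 in any library.

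**Figure D3:**
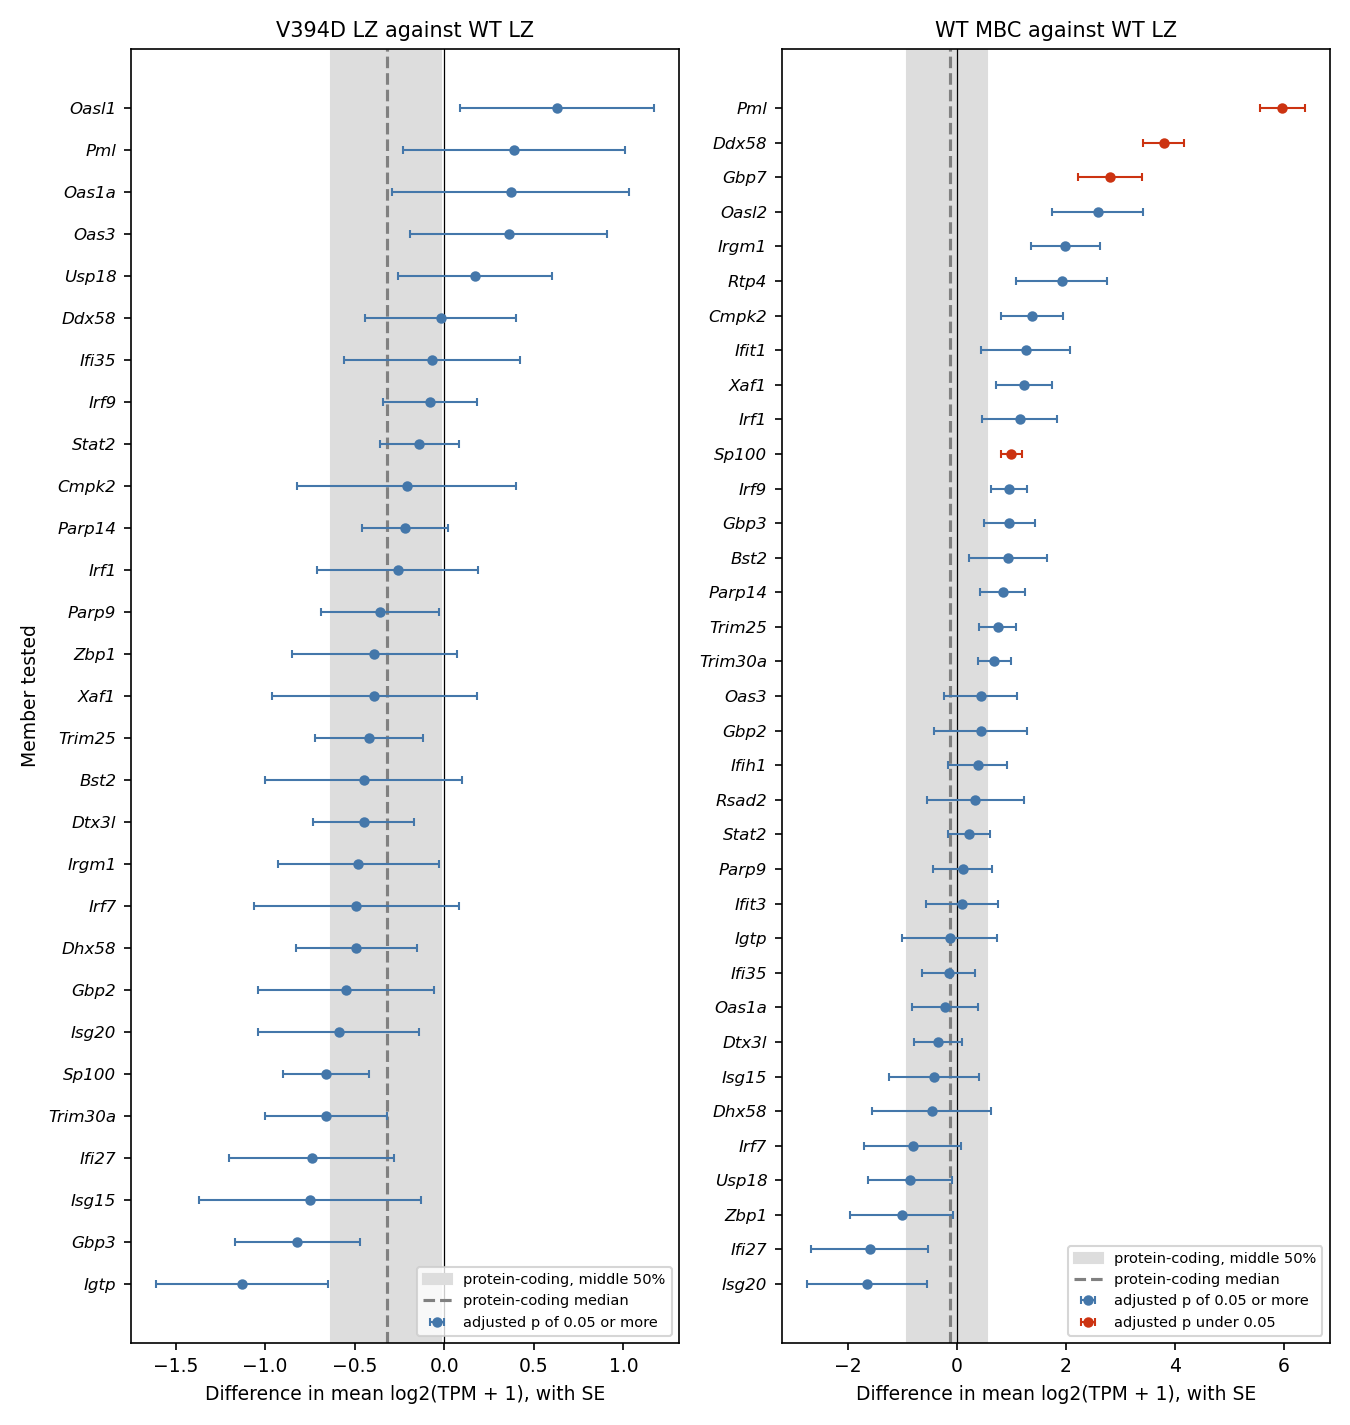
Difference in mean log2(TPM + 1) with its SE (x axis) for the members tested (y axis, ordered from lowest to highest difference), for Myc V394D LZ B cells (left, 29 members) and MBCs (right, 35 members) against Myc WT LZ B cells. Red points passed an adjusted p of 0.05, the dashed line is the median of protein-coding genes and the grey band their middle 50%: on the right 4 members are red and on the left none is.

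The genes of nuclear bodies were both higher in MBCs. Pml (ENSMUSG00000036986, chromosome 9, 58218076 to 58249786, minus strand) encodes the scaffold of PML nuclear bodies, which sequester viral genomes and take part in control of growth and survival. Its level was 0.51, 1.71, 1.84 and 1.42 TPM in Myc WT LZ mice 1 to 4, at 7.88, 0.00, 1.34 and 3.02 TPM in Myc V394D LZ mice 5 to 8, and at 145, 183 and 111 TPM in MBCs of mice 1, 3 and 4. All 3 MBC libraries thus lay far above all 8 LZ libraries, and Pml moved from percentile 39.8 of protein-coding genes in Myc WT LZ B cells to percentile 96.5 in MBCs. The ratio of mean TPM was 107 and the log2 difference 5.97 (SE 0.41, limma adjusted p = 0.000312). Counted from the largest increase in MBCs downwards, Pml ranked 5 among the 13245 genes tested. Within a mouse the ratio of MBCs to LZ B cells was 284, 99.2 and 78.1 in mice 1, 3 and 4. The call held under the 15 alternatives run, with log2 differences of 5.76 to 6.74. Sp100 (ENSMUSG00000026222, chromosome 1, 85649988 to 85709998, plus strand), another resident of these bodies, was at 294, 256, 274 and 253 TPM in Myc WT LZ mice and at 598, 443 and 585 TPM in MBCs. Here too the groups did not overlap, but from a high level in both. The ratio was 2.01 and the log2 difference 1.00 (SE 0.19, limma adjusted p = 0.0157). The call was lost with the mouse as a replicate block (adjusted p = 0.136), without Myc WT LZ mouse 2 (0.0677) or mouse 3 (0.0534) and without a trend (0.0896). Related Sp100 sequences lie near the gene in the mouse genome, so the division of reads among them is uncertain.

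Among the 4 sensors of nucleic acid, 1 was higher in MBCs. Ddx58 (ENSMUSG00000040296, chromosome 4, 40203773 to 40239828, minus strand) encodes RIG-I, the cytosolic sensor of viral RNA with a 5′ triphosphate. It was at 5.17, 4.81, 3.78 and 2.35 TPM in Myc WT LZ mice, at 3.94, 1.88, 7.85 and 3.34 TPM in Myc V394D LZ mice, and at 61.2, 66.7 and 72.9 TPM in MBCs. The 3 MBC values were close together and well above every LZ value. The ratio to Myc WT LZ B cells was 16.6 and the log2 difference 3.79 (SE 0.38, limma adjusted p = 0.00159), and the call held under the 15 alternatives run. The other sensors did not pass. Ifih1 (MDA5, which senses long double-stranded RNA) was at 0.53, 1.15 and 3.30 TPM in MBCs and at 0.38 to 1.46 TPM in Myc WT LZ B cells. Dhx58 (LGP2, a regulator of both sensors) was at 39.6, 0.00 and 15.2 TPM beside 7.78 to 15.99. Zbp1, a sensor of Z-form nucleic acid, was at 10.9, 0.49 and 37.2 TPM beside 13.75 to 23.91. For Dhx58 and Zbp1 the MBC libraries fell on both sides of the LZ values, with MBC 3 lowest.

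Of the 5 interferon-inducible GTPases, which act on the membranes of pathogen vacuoles, Gbp7 was higher in MBCs. Gbp7 (ENSMUSG00000040253, chromosome 3, 142530342 to 142550149, plus strand) was at 0.04, 0.34, 0.11 and 0.16 TPM in Myc WT LZ mice and at 2.49, 13.1 and 9.98 TPM in MBCs. It went from close to 0 to a modest level, and MBC 1 was the lowest of the 3. The log2 difference was 2.81 (SE 0.59, limma adjusted p = 0.0235). With a Myc WT LZ mean of 0.163 TPM, Gbp7 passed the filter only through its level in MBCs. The call was lost without any 1 of the 4 Myc WT LZ mice (adjusted p = 0.0721 to 0.086), without the filter on low values (0.0631) and with the mouse as a replicate block (0.133). Gbp7 overlaps on the same strand the processed pseudogene Gm43802, which was at a mean of 6.58 TPM in MBCs and 0.055 TPM in Myc WT LZ B cells, and the guanylate-binding protein genes are close paralogs, so its reads may be shared. Irgm1, an immunity-related GTPase that also guides autophagy, was at 0.78, 2.92, 2.24 and 2.77 TPM in Myc WT LZ mice and at 4.24, 13.2 and 22.7 TPM in MBCs. The groups did not overlap. The log2 difference was 1.99 (SE 0.63), with an adjusted p of 0.0827, and of 0.0291 without MBC 1. Gbp3 was at 8.20, 19.1 and 11.3 TPM in MBCs beside 8.32, 4.86, 6.57 and 3.99 TPM, with MBC 1 just inside the LZ range (log2 difference 0.96, SE 0.47, limma adjusted p = 0.226). Gbp2 (0.07, 3.59 and 12.9 TPM) and Igtp (4.99, 0.28 and 20.8 TPM) (which overlaps Irgm2 on the same strand) spread over a wide range in MBCs, around Myc WT LZ values of 0.66 to 3.15 and 3.62 to 7.48.

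**Figure D4:**
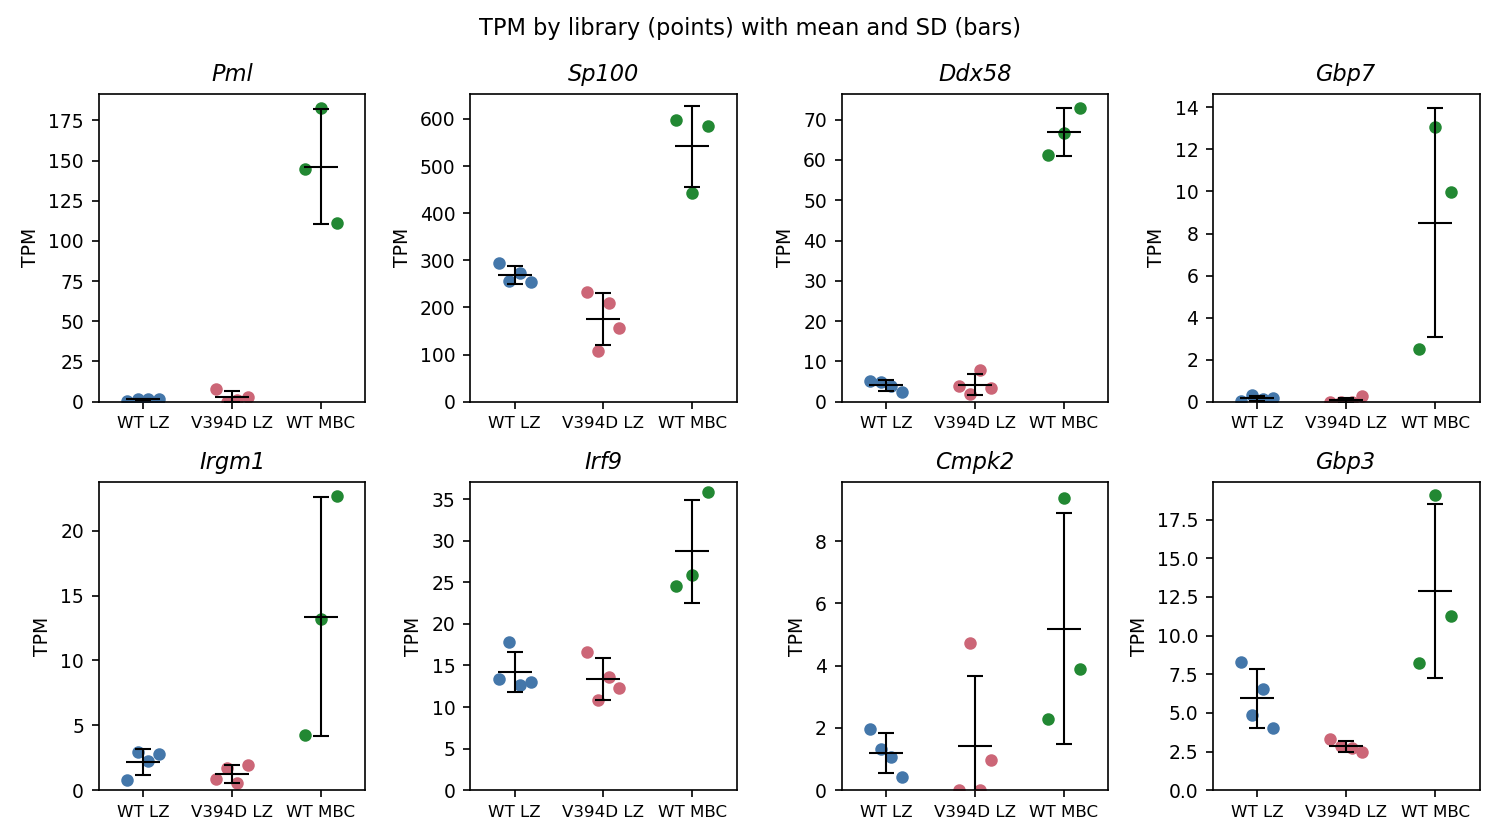
TPM (y axis, linear from 0) of 8 members in the 4 Myc WT LZ, 4 Myc V394D LZ and 3 Myc WT MBC libraries (points, 1 per library), with the group mean and SD (black bars). All 3 MBC points lie above all Myc WT LZ points for 7 of the genes, and for Gbp3 all 4 Myc V394D points lie below all Myc WT LZ points.

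None of the 4 signal and transcription factors passed. Irf9, the DNA-binding subunit of the complex that recognizes the ISRE, was at 13.4, 17.8, 12.6 and 13.0 TPM in Myc WT LZ mice and at 24.5, 25.9 and 35.8 TPM in MBCs. The groups did not overlap (ratio 2.02, log2 difference 0.96, SE 0.33, limma adjusted p = 0.105). Irf9 overlaps Rnf31 on the same strand. Stat2, its partner, was at 24.9, 14.6 and 40.4 TPM in MBCs, on both sides of the narrow Myc WT LZ range of 19.6 to 22.4 TPM. Irf1, an activator downstream of interferon gamma, was at 90.0, 8.14 and 20.4 TPM beside 8.85 to 13.0, so that MBC 1 was far above the LZ range and MBC 3 below it. Irf7, which amplifies type I interferon production, was at 0.00, 16.8 and 7.56 TPM beside 6.58 to 11.7.

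The 13 genes that restrict viral RNA and translation, of which 8 were tested, gave no call in MBCs. Cmpk2, a nucleotide kinase next to Rsad2, was at 1.95, 1.32, 1.07 and 0.41 TPM in Myc WT LZ mice and at 2.30, 9.39 and 3.89 TPM in MBCs. The groups did not overlap, by a small margin (log2 difference 1.38, SE 0.57, limma adjusted p = 0.161). Oasl2, an oligoadenylate synthetase-like protein, was at 26.6, 21.6 and 2.03 TPM in MBCs beside 0.20 to 2.38 TPM, so that 2 of the 3 libraries were high (log2 difference 2.58, SE 0.83, limma adjusted p = 0.0851). It passed without MBC 4 and when all 3 groups were fitted together. Ifit1, which binds RNA that lacks a 2′-O-methylated cap, was high in MBC 3 (11.6 TPM), and 0.00 and 1.40 TPM in MBC 1 and 4. Rsad2 (viperin) was at 8.76 TPM in MBC 3 and at 0.00 and 0.03 TPM in the other 2. Isg20, an exonuclease, was at 0.00, 24.1 and 27.9 TPM beside 15.1 to 55.8. Ifit2, Ifit3, Oas1a, Oas2, Oas3, Oasl1, Mx1 and Mx2 were at or under 4.61 TPM in every MBC library. Ifit3 and Oas1a have near-identical copies, between which the division of reads is uncertain.

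The ISG15 and ubiquitin genes and the remaining members gave no call either. Isg15, the ubiquitin-like modifier, was at 0.00, 1.59 and 5.83 TPM in MBCs and at 0.24 to 6.49 TPM in Myc WT LZ B cells, and Usp18, which removes it from proteins, at 8.78, 0.00 and 0.96 TPM beside 2.78 to 6.04. Neither stood apart from the LZ range in a single direction. Trim25, a ubiquitin ligase that acts on RIG-I signaling, was at 40.0, 27.2, 33.3 and 26.1 TPM in Myc WT LZ B cells and 38.4, 82.5 and 47.1 TPM in MBCs (log2 difference 0.75, SE 0.34, limma adjusted p = 0.199, exact permutation p = 0.0571). Parp14, an ADP-ribosyltransferase, was at 18.8, 26.1, 26.1 and 20.9 TPM beside 59.5, 21.1 and 56.6 TPM (log2 difference 0.84, SE 0.41, limma adjusted p = 0.227, exact permutation p = 0.0857), with MBC 3 inside the LZ range. Its neighbors Parp9 (43.1, 8.03 and 30.3 TPM in MBCs) and Dtx3l (14.1, 9.58 and 31.7 TPM) surrounded their Myc WT LZ levels of 15.3 to 24.3 and 16.2 to 24.2 TPM. Trim30a, a feedback regulator of innate signaling with close paralogs, was at 30.0, 37.5, 34.1 and 40.5 TPM in Myc WT LZ B cells and 72.2, 38.6 and 68.7 TPM in MBCs (log2 difference 0.69, SE 0.31, limma adjusted p = 0.191, exact permutation p = 0.0571). Again MBC 3 lay within the LZ range. Xaf1 was at 5.53, 15.4 and 14.2 TPM in MBCs beside 2.60 to 6.41, and Rtp4 at 15.9, 0.11 and 3.04 TPM beside 0.00 to 0.29. Bst2 (tetherin, which holds budding virus at the membrane), Ifi27 and Ifi35 overlapped between the groups.

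For the 7 members whose groups did not overlap (Pml, Ddx58, Sp100, Gbp7, Irgm1, Irf9 and Cmpk2), beside 11.8% of all genes tested, the exact permutation test of the difference in mean TPM, two-sided, gave p = 0.0286. This is the smallest that the 35 groupings of 3 against 4 libraries can give, and groups that do not overlap always reach it, so that it adds nothing to their count.

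Genes of the interferon pathway that are not members were read from a list of 45 genes. None of its 9 ligands reached the level tested: 8, Ifnb1 and Ifng among them, were listed at 0 in all 11 libraries, and Ifnk was at most 0.92 TPM. In MBCs 6 of 34 tested genes of the list were higher, beside 4.17% of all genes tested, and 0 lower, beside 5.04%. The 6 held 1 of 6 receptors, 1 of 5 kinases and STAT genes, 3 of 10 sensors and adaptors and 1 of 7 inhibitors. Tlr7, the endosomal receptor for single-stranded RNA, was at 0.82 to 1.40 TPM in Myc WT LZ B cells and 35.6, 49.4 and 52.5 TPM in MBCs (log2 difference 4.43, SE 0.42, limma adjusted p = 0.00146). Of 84 further interferon-stimulated genes, 70 were tested, and 15 were higher and 0 lower in MBCs, beside the same 4.17% and 5.04% of all genes tested. Of the 15, 3 had a Myc WT LZ mean under 1 TPM and so were tested only because they were high in MBCs. Large differences were those of Ifi203 and Ifi213, which belong to the DNA-sensing PYHIN family, Cd274, which encodes the checkpoint ligand PD-L1, and Slfn8. Ifi203 was at 14.3 to 20.2 TPM in Myc WT LZ B cells and 368, 532 and 297 TPM in MBCs (log2 difference 4.39, SE 0.28, limma adjusted p = 0.00027), and Cd274 at 2.25 to 3.79 and 58.4, 25.4 and 44.1 TPM (3.28, SE 0.44, 0.0043). Ifi213, whose Myc WT LZ mean of 0.772 TPM let it pass the filter only through MBCs, differed by 3.68 (SE 0.54, limma adjusted p = 0.006) and Slfn8 by 3.18 (SE 0.48, 0.00669) on the log2 scale. The median log2 difference was 0.68 over the 34 pathway genes and 0.46 over the 70 further genes, beside -0.13 for protein-coding genes. Many PYHIN genes are paralogs whose reads may be shared.

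Markers of other cell types also differed between MBCs and LZ B cells, and their part in the results above was not tested. The summed TPM of 8 myeloid genes was 0.82 to 5.82 in Myc WT LZ B cells and 43.4, 43.2 and 191 in MBCs of mice 1, 3 and 4, with Lyz2 at 136 TPM in MBC 4 and C1qb at 27.3 TPM in MBC 1. Of 5 genes of plasmacytoid dendritic cells, the sum was 26.6 to 37.9 in Myc WT LZ B cells and 55.8, 15.5 and 35.5 in MBCs. In LZ B cells nearly all of it was Pacsin1. Siglech (11.02 TPM), Klk1 and Cox6a2 were above 0 in MBC 1 and at 0 in MBC 3 and 4. The sum of 5 erythroid genes was 4769 in MBC 3, 6.21 in MBC 1 and 37.4 in MBC 4, beside 104 to 210 in Myc WT LZ B cells. The sum of 7 T cell genes was 26.1, 0.00 and 48.9 in MBCs beside 33.1 to 68.5, with Lck the main part in LZ B cells, and Trac was at 17.7 TPM in MBC 4. The 5 neutrophil genes were at 0 in all MBC libraries, NK genes summed to at most 0.45, and 5 plasma cell genes to 190 to 359 beside 274 to 446. Genes of naive follicular B cells (4, among them Fcer2a and Cr2) summed to 936 to 1058 TPM in MBCs and 364 to 368 in Myc WT LZ B cells, and 5 pan-B cell genes to 4914 to 6000 and 2905 to 3545.

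Myc V394D LZ B cells were compared with Myc WT LZ B cells to ask whether loss of MIZ1 binding by MYC altered these genes. Of the 41 members, 29 were tested. Ifit1, Ifit2, Ifit3, Mx1, Mx2, Oas2, Oasl2, Rsad2, Rtp4, Ifi44, Ifih1 and Gbp7 had a mean under 1 TPM. With limma and Benjamini-Hochberg adjustment over 12869 genes, 0 members were higher and 0 lower, beside 0.00777% and 0.0389% of all genes tested, so that few genes of any kind passed. At an unadjusted p under 0.05, 0 members were higher, beside 1.24% of all genes tested, and 3 lower (Sp100, Gbp3 and Igtp), beside 15.7%. The 4 Myc V394D libraries were all above the 4 Myc WT libraries for 0 members, beside 0.816% of all genes tested, and all below for 2 (Sp100 and Gbp3), beside 9.16%. These shares of the members were no larger than those of all genes. The median log2 difference of the 29 members was -0.39, with 24 below 0 and 5 above, beside -0.32 for 9898 protein-coding genes, and 17 members lay below that median and 12 above it. Relative to protein-coding genes the median was thus -0.07, and it ranged from -0.12 to 0.05 when single libraries were left out.

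Sp100 was at 232, 109, 208 and 156 TPM in Myc V394D LZ mice 5 to 8, each below the lowest Myc WT LZ value of 253 TPM. The ratio of means was 0.654 and the log2 difference -0.66 (SE 0.24, limma adjusted p = 0.206, exact permutation p = 0.0286, the smallest of 70 groupings). Relative to the median of protein-coding genes the difference was -0.35, and after rescaling over protein-coding genes -0.32. Gbp3 was at 3.33, 2.85, 2.70 and 2.48 TPM, each below the lowest Myc WT LZ value of 3.99 TPM (ratio 0.479, log2 difference -0.82, SE 0.35, limma adjusted p = 0.263, exact permutation p = 0.0286). Groups that do not overlap always reach this permutation p, so that it adds nothing to the lack of overlap. Neither Sp100 nor Gbp3 passed under any of the alternatives run.

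The other GTPases tested had negative differences as well, none of which passed: Igtp was at 3.03, 0.55, 0.70 and 4.43 TPM beside 3.62 to 7.48 (log2 difference -1.13, SE 0.48, limma adjusted p = 0.264), and Gbp2 and Irgm1 differed by -0.55 (SE 0.49) and -0.48 (SE 0.45). Trim30a was at 33.52, 33.49, 10.97 and 18.55 TPM (log2 difference -0.66, SE 0.34, limma adjusted p = 0.35, exact permutation p = 0.114), with 2 libraries within the Myc WT range. Trim25 was at 38.7, 23.3, 20.9 and 14.9 TPM (log2 difference -0.42, SE 0.30, limma adjusted p = 0.504, exact permutation p = 0.286), and Parp14 at 21.1, 20.2, 16.3 and 20.2 TPM (log2 difference -0.22, SE 0.24, limma adjusted p = 0.656, exact permutation p = 0.229). Both overlapped the Myc WT range. Of the members that were higher in MBCs, Pml differed by 0.39 (SE 0.62) and Ddx58 by -0.02 (SE 0.42). The 4 signal and transcription factors lay between -0.49 and -0.08, with Irf9 at 16.7, 10.8, 13.7 and 12.3 TPM (log2 difference -0.08, SE 0.26) and Stat2 at 16.8 to 21.0 TPM. The 3 sensors tested lay between -0.49 and -0.02, and the 6 ISG15 and ubiquitin genes between -0.75 (Isg15) and 0.17 (Usp18). Of the 5 genes of viral restriction tested, Oasl1, Oas1a and Oas3 were above 0 (0.63, 0.37 and 0.36), and Isg20 and Cmpk2 below. Oasl1, with a Myc WT LZ mean of 0.498 TPM, was tested only because of its level in Myc V394D LZ B cells, where mouse 7 was at 4.33 TPM and the others at 0.41 to 0.92. Oas1a was at 8.80, 0.29, 6.29 and 0.41 TPM, so that the Myc V394D mice differed more among themselves than from the Myc WT mice.

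Among the pathway and further interferon-stimulated genes, 0 of 33 and 0 of 66 tested were higher or lower in Myc V394D LZ B cells, beside 0.00777% of all genes tested that were higher and 0.0389% that were lower. Their median log2 differences were -0.18 and -0.15, above the protein-coding median of -0.32. Myeloid genes summed to 0.00 to 12.6 TPM in these libraries, erythroid genes to 65.0 to 340.0, and LZ genes to 562 to 869 TPM, each overlapping Myc WT LZ B cells. Plasma cell genes summed to 132 to 265 TPM beside 274 to 446, and plasmacytoid dendritic cell genes to 17.1 to 24.8 TPM beside 26.6 to 37.9, without overlap. In both groups nearly all of the latter sum was Pacsin1. These sums are not rescaled: protein-coding genes took 33.1 to 49.7% of all TPM in Myc V394D and 48.7 to 58.6% in Myc WT LZ B cells. Of all genes tested, 9.16% were likewise lower in Myc V394D LZ B cells without overlap. The part of these marker differences in the values above was not tested.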

How the data were processed

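The authors aligned strand-specific RNA-seq reads of 11 libraries (total RNA, Nugen cDNA kit, Illumina HiSeq) to GRCm38 and deposited gene TPM values, per the labels with STAR 2.5.2a and RSEM 1.3.0. The submitters' notes also name DESeq2 1.18.1, not used here. TPM is scaled per length and to a fixed total, so a large class such as ribosomal RNA lowers all other genes, and the depth per sample is unknown. RSEM divides reads among similar genes.

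Symbols came from GENCODE M21 (48435 of 48795 identifiers). Genes that averaged 1 TPM or more in the libraries compared were tested on log2(TPM + 1), which understates changes of low genes, with limma 3.58.1 (trend, R 4.3.3), two-sided, Benjamini-Hochberg threshold 0.05, after a test on simulated data. Single members had an exact permutation test over all groupings of the libraries compared. Ratios are of mean TPM and are not given where a library was at 0. MBCs and LZ B cells of mice 1, 3 and 4 come from the same animals by their labels. Deviations of same-mouse libraries from their group means correlated by 0.00507, 0.0115 and -0.047, and the fit without the mouse is the one reported, with the block beside it. Members and gene lists were chosen with earlier results of these data known. Values by library are given for members past the threshold, without overlap, or among the 5 highest. Of other interferon genes, those with the 6 largest differences past the threshold are named, and some items of this rule are not reported here. Alternatives changed the pseudocount, filter, scaling, trend, groups fitted and libraries.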

Additional observations from a re-analysis of the deposited data

Results flagged for a closer look

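In groups of 4 LZ libraries, 12 values out of 79 member groups stood apart from the other 3 libraries by Dixon's criterion, which chance meets in about 1 group in 20. For 5 of the 12 (Ifit1, Ifit3, Rtp4, Ifi44 and Gbp7) the other 3 libraries were all at 0, which always meets the criterion, so that the chance rate does not apply to them. In Myc V394D LZ B cells, mouse 7 stood above the others for Zbp1 (38.68 TPM beside 7.16 to 9.29), Oasl1 (4.33 TPM beside 0.41 to 0.92) and Rtp4 (0.33 TPM beside 0), and below them for Parp14 (16.3 TPM beside 20.24 to 21.05). Mouse 8 stood above for Ifih1 (1.52 TPM beside 0.09 to 0.28) and Gbp7 (0.25 TPM beside 0), mouse 5 for Ifit1 (0.47 TPM beside 0) and mouse 6 for Ifit3 (1.04 TPM beside 0).

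In Myc WT LZ B cells, mouse 1 stood above the others for Zbp1 (23.91 TPM beside 13.75 to 15.22) and Rsad2 (3.08 TPM beside 0.08 to 0.39), mouse 2 for Irf9 (17.79 TPM beside 12.6 to 13.36) and mouse 4 for Ifi44 (0.14 TPM beside 0). Of these 12 values, those of Ifit1, Rtp4, Ifi44 and Gbp7 are under 1 TPM.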

How the results depend on the processing

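Pml and Ddx58 were higher in MBCs under all 15 alternatives, and 0 members were lower in any. The count of members higher in MBCs, 4 as reported, came to 2 when the mouse was a replicate block, and ranged from 2 (without Myc WT LZ mouse 2 or 3) to 7 (without MBC 3) when single libraries were left out. Irgm1 passed when all 3 groups were fitted together (adjusted p = 0.0415) and without MBC 1. The fit with the replicate block lost the calls of Sp100 and Gbp7 and changed no other, but it also leaves out Myc WT LZ mouse 2, and leaving out that mouse without the block lost the same 2 calls. The median log2 difference of the members in MBCs, 0.44, was 0.59 with a pseudocount of 0.1 TPM, 0.75 with a mean of at least 5 TPM, and 0.34 to 0.70 without single libraries. Relative to protein-coding genes it was 0.57, and 0.85 with a pseudocount of 0.1 TPM, 0.4 without a filter, 0.86 with a mean of at least 5 TPM, 0.71 with all 3 groups in 1 fit, and 0.53 to 0.88 without single libraries. In Myc V394D LZ B cells 0 members passed under any alternative. There the median, -0.39, was -0.13 after rescaling over protein-coding genes, -0.09 after rescaling by the median ratio and -0.43 to -0.24 without single libraries. The cause of these shifts was not tested. Relative to protein-coding genes the Myc V394D median, -0.07, ranged from -0.12 to 0.05 without single libraries and was above 0 without Myc WT LZ mouse 1 or Myc V394D mouse 5, 7 or 8. No called difference changed direction. Depth is unknown, and single zeros in MBC 1 and MBC 3 (9 and 10 members at 0, beside 1 in MBC 4) limit what the low members can show.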
